A study of Mus musculus with 41 samples.

Results

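The genes described here are Trp53, which encodes the tumor suppressor p53, its inhibitor Mdm4, and 29 genes listed as p53 targets, 31 genes in all. Whether p53 switches on each of them in these mouse cells was not tested. They were chosen by name, with earlier results of these data known, and each matched 1 entry of the 34591 in the deposited expression table. CDK inhibitors, Cdkn1a among them, were kept out of the list and are given beside it. p53 is a transcription factor that is held at a low level by Mdm2, the ligase that marks it for degradation, and by the related Mdm4. After DNA damage or other stress it accumulates, binds its response elements and raises genes for cell cycle arrest, apoptosis, DNA repair and metabolic adjustment, and Mdm2 is itself one of these targets. In gliomas of the brainstem in children, loss of p53 often goes with the histone mutation studied here.

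RNA-seq had been done on 29 mouse brainstem tumors and 12 neurosphere cultures, in which neural progenitors grow as floating clusters. The 20 K27M tumors carried Trp53flox/flox, Nestin-creERT2 and LSL-PDGFRαV544ins beside the knock-in allele H3f3aLSL-K27M-Tag/+, and the 9 WT-Tag tumors carried H3f3aLSL-WT-Tag/+ in place of the K27M allele. In these mice a Cre recombinase under the Nestin promoter, which is active in neural progenitors, removes a stop cassette (LSL) ahead of tagged histone H3.3, mutant at lysine 27 (K27M) or wild type (WT-Tag), and ahead of an activated PDGF receptor. It also recombines the floxed Trp53 alleles. The cultures came from E15.5 embryos with Nestin-cre and the K27M or the WT-Tag allele, without the receptor transgene or floxed Trp53 per the labels, and were grown as neural precursors. They comprised 3 K27M and 3 WT-Tag cultures each of forebrain and hindbrain, numbered by experiment 1 to 3. All cultures were female except for the male WT-Tag ones of experiment 3. Both tumor groups carry floxed Trp53, so no tumor with intact Trp53 served as a control. The tumors are pieces of tissue and the cultures are cells in medium. In any comparison of tumors with cultures, several factors therefore cannot be told apart. They include tissue against culture, the origin of the cultures from E15.5 embryos, the Cre line (Nestin-creERT2 or Nestin-cre), the floxed Trp53 alleles and the receptor transgene.

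The values are FPKM, fragment counts scaled to transcript length and to the number of mapped fragments, so that levels of different genes can be set side by side. Relative depth was estimated from the most frequent FPKM ratio between 2 libraries, over genes at 0 in at least 8 libraries. It was between 0.268 and 1.79 across the libraries, with medians of 0.921 for the K27M and 1.27 for the WT-Tag tumors, 0.801 in K27M and 1.09 in WT-Tag forebrain cultures, and 0.812 in K27M and 1.03 in WT-Tag hindbrain cultures. The lowest, that of the K27M forebrain culture of experiment 1, is the least certain, with a share of 0.675 of its library pairs within 0.1 log2 of the estimate. Markers of other cell types differed in how they were shared between tumors and cultures. Summed over 8 genes, endothelial markers were at 21.5 to 62.0 FPKM in K27M and 24.7 to 42.0 FPKM in WT-Tag tumors, against 0.617 to 1.28 FPKM in the cultures. Astrocyte markers (8 genes) were at 238 to 1238 FPKM in K27M tumors, 100.01 to 1073 FPKM in WT-Tag tumors and 263 to 715 FPKM in the cultures, and those of oligodendrocyte precursors (7 genes) at 184 to 1379, 416 to 958 and 404 to 599 FPKM. The summed level of 12 microglia and macrophage genes was between 173 and 628 FPKM in K27M tumors and 1.53 to 2.56 FPKM in K27M hindbrain cultures, and between 212 and 653 FPKM in WT-Tag tumors and 1.78 to 2.08 FPKM in WT-Tag hindbrain cultures. Of 9 progenitor genes the sum was between 148 and 1013 FPKM in K27M tumors and between 473 and 1245 FPKM in WT-Tag tumors, against 2065 to 2508 FPKM across the 12 cultures. Neuron markers (12 genes) summed to 86.5 to 1017 FPKM in K27M and 75.5 to 601 FPKM in WT-Tag tumors. In hindbrain cultures they were at 7.78 to 8.71 FPKM with K27M and 6.83 to 10.2 FPKM with WT-Tag. Mature oligodendrocyte markers (8 genes) had medians of 893 FPKM in K27M and 377 FPKM in WT-Tag tumors. In hindbrain cultures their medians were 19.6 FPKM with K27M and 67.0 FPKM with WT-Tag. No 2 libraries held identical values. By Xist, expressed from the inactive X, and the Y-linked Ddx3y, 39 of the 41 libraries matched their labelled sex. WT-Tag tumor 8, labelled female, had 0.031 FPKM of Xist and 3.44 of Ddx3y, and WT-Tag tumor 9, labelled male, had 54.5 and 0.003 FPKM. Without these 2 libraries the counts of the 31 genes called in tumors, given below, were 25 and 17 lower than in the cultures of their genotype, the same as with them, and 0 between K27M and WT-Tag.

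The promoter windows below show the letters of the p53 half-site near the starts of 4 genes whose RNA was lower in K27M tumors than in K27M hindbrain cultures. These 4 were picked by name among genes with a half-site in the window. Genes without a half-site, Eda2r and Btg2 among them, were lower too, and a link of half-site and RNA was not tested. Each window is the RefSeq window of build GRCm38.p6, 250 bases before and 50 bases after the annotated start, printed 5′ to 3′ on the gene's strand, with its 1 half-site in capitals. All lie on the minus strand, Ccng1 at chr11:40755237-40755536 with the half-site starting 185 bases before the gene's start, Mdm2 at chr10:117710709-117711008 (186 bases before), Bax at chr7:45466849-45467148 (201 bases before) and Ei24 at chr9:36797285-36797584 (10 bases before).
Ccng1: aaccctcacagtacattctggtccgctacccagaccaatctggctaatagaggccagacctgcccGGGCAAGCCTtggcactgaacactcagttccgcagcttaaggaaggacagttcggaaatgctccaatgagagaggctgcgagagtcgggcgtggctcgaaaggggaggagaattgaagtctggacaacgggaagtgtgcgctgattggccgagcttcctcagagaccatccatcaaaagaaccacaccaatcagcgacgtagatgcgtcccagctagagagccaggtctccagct
Mdm2: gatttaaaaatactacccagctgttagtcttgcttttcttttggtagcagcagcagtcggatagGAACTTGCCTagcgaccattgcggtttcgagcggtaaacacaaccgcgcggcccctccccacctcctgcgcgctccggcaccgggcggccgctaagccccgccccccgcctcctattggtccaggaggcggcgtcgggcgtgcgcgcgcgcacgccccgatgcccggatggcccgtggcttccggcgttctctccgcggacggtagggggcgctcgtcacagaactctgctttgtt
Bax: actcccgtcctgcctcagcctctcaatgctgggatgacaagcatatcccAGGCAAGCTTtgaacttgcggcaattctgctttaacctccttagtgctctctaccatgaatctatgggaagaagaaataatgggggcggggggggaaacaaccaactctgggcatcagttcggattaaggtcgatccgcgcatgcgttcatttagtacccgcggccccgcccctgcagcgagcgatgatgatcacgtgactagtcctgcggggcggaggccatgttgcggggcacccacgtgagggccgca
Ei24: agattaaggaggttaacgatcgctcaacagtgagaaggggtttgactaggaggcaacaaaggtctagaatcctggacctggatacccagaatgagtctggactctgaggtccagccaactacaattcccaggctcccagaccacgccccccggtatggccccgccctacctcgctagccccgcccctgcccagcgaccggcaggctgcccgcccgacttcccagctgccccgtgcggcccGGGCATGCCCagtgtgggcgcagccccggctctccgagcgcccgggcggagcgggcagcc

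The motif searched was the p53 half-site, a palindrome of 10 bases, so a match on one strand is a match on the other. RefSeq windows were found for 23 of the 31 genes, and 11 of these (47.8%) held at least 1 half-site, against 9.55% of the 27025 genes in the promoter table. Since most of the genes were listed as p53 targets, this share describes the list and is not a result of the RNA data. The 11 were Trp53, Mdm2, Ccng1, Bax, Sesn1, Ei24, Aen, Gtse1, Polk, Gadd45a and Rps27l. The 12 matched genes without one in the window were Mdm4, Bbc3, Fas, Sesn2, Phlda3, Eda2r, Dcxr, Btg2, Plk2, Plk3, Apaf1 and Ercc5. A match describes the letters of the window and does not show that p53 binds there. Pmaip1, Zmat3, Tnfrsf10b, Xpc, Trp53inp1, Perp, Rrm2b and Ddb2 were not matched.

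Trp53 itself, the floxed gene, was measured at low levels in every tumor. It had a lowest value of 1.92, a median of 2.39 and a highest value of 5.54 FPKM in the K27M tumors, and 2.06, 2.44 and 4.83 FPKM in the WT-Tag tumors. In hindbrain cultures it had 9.01, 8.45 and 7.17 FPKM with K27M (experiments 1 to 3) and 8.37, 4.20 and 5.29 FPKM with WT-Tag, and in forebrain cultures 10.6, 9.11 and 7.77 FPKM with K27M and 9.57, 6.33 and 6.57 FPKM with WT-Tag. Ordered by mean, forebrain K27M cultures (9.17 ± 1.43 FPKM, SD, n = 3) were followed by hindbrain K27M (8.21 ± 0.941), forebrain WT-Tag (7.49 ± 1.80) and hindbrain WT-Tag cultures (5.95 ± 2.16), and then by WT-Tag tumors (2.85 ± 0.994, n = 9) and K27M tumors (2.71 ± 0.849, n = 20). Neighbouring culture groups overlapped, as did the tumor groups. The highest WT-Tag tumor, at 4.83 FPKM, lay above the lowest WT-Tag hindbrain culture, at 4.20 FPKM. A value for the whole gene does not tell a recombined from an intact allele, and the labels do not say which exons are floxed. RNA from cells that kept Trp53 also counts in a piece of tumor.

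**Figure D1:**
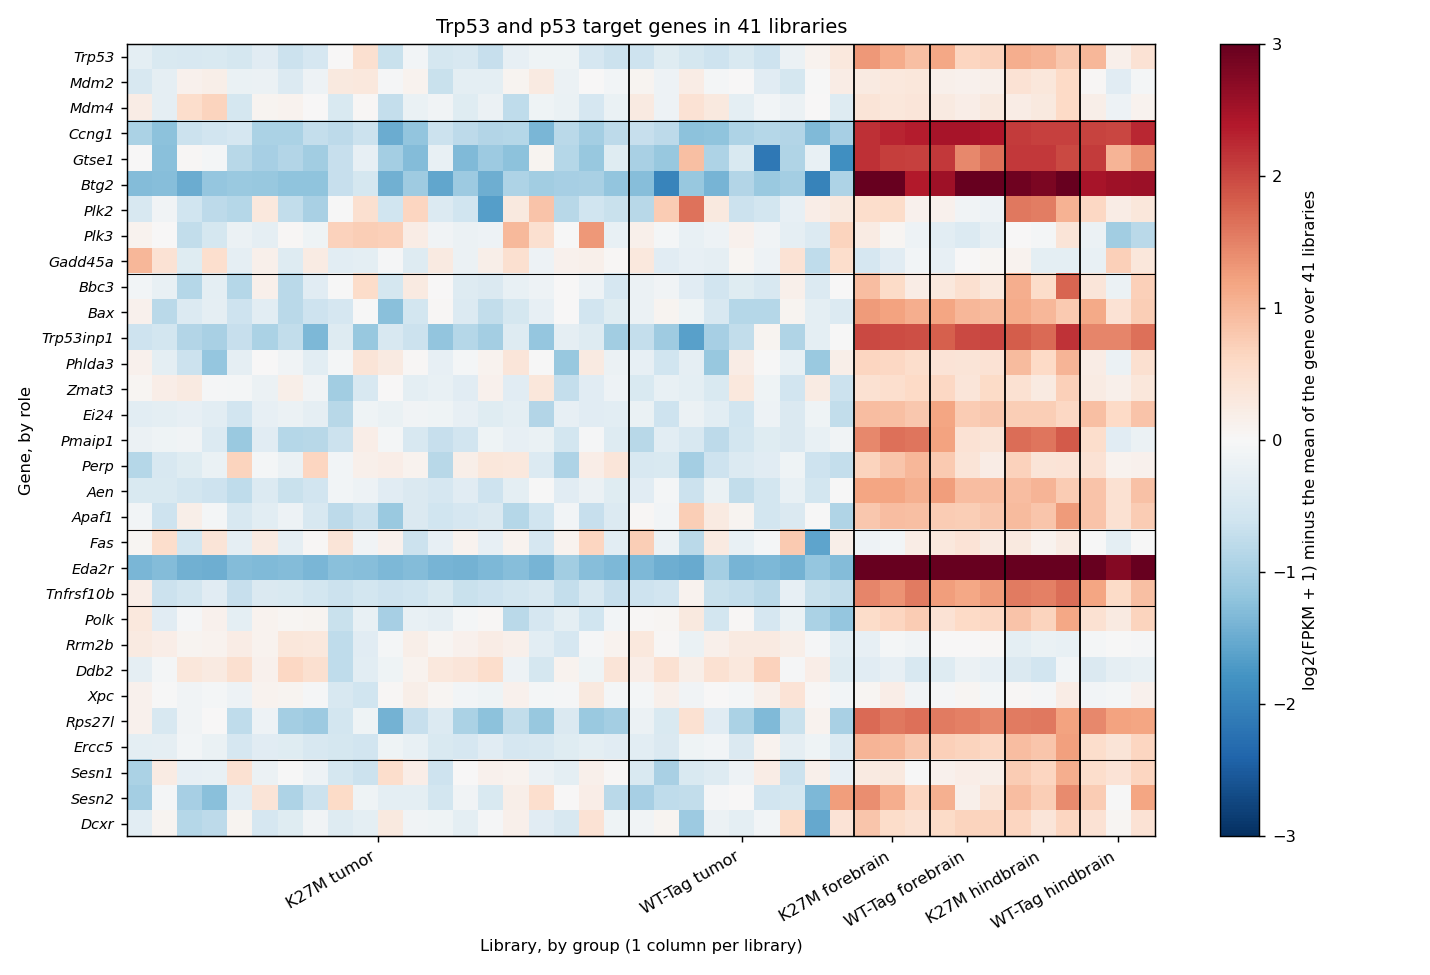
Level of each of the 31 genes in each of the 41 libraries, as log2(FPKM + 1) minus the gene's mean over the libraries (colour, clipped at the ends of the scale), with genes in rows by role and libraries in columns by group. Eda2r, Btg2 and Ccng1 were low in every tumor and high in every culture, whereas Rrm2b and Xpc differed little between tumors and cultures.

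K27M tumors were compared with K27M hindbrain cultures, the region nearest to the brainstem. Of the 31 genes, 25 were lower in the tumors and 0 were higher by limma at an adjusted p under 0.05, where 25.4% of all 16721 genes tested were lower and 32.0% higher. The median log2 change of FPKM + 1 over the 31 genes was -1.30, against 0.11 over all genes. In the WT-Tag tumors, compared with WT-Tag hindbrain cultures, 17 were lower and 0 higher, where 43.2% of all genes passed in either direction and 16.2% were lower, with medians of -0.75 for the 31 genes and 0.17 for all genes. All 17 were also among the 25. Eda2r and Tnfrsf10b reached the expression filter through the cultures alone, so a difference was built into their being tested. Without them 23 of 29 genes were lower in K27M and 15 of 29 in WT-Tag tumors, with medians of -1.13 and -0.75. In 21 genes every K27M tumor lay below every K27M hindbrain culture, where 15.8% of all genes did so, and in 13 genes every WT-Tag tumor lay below every WT-Tag culture, where 8.80% did, or 19 and 11 genes without Eda2r and Tnfrsf10b. In bulk RNA, fewer cells of a type and less RNA per cell cannot be told apart, and the part of the other cell types of the tumors in these differences was not tested.

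**Figure D2:**
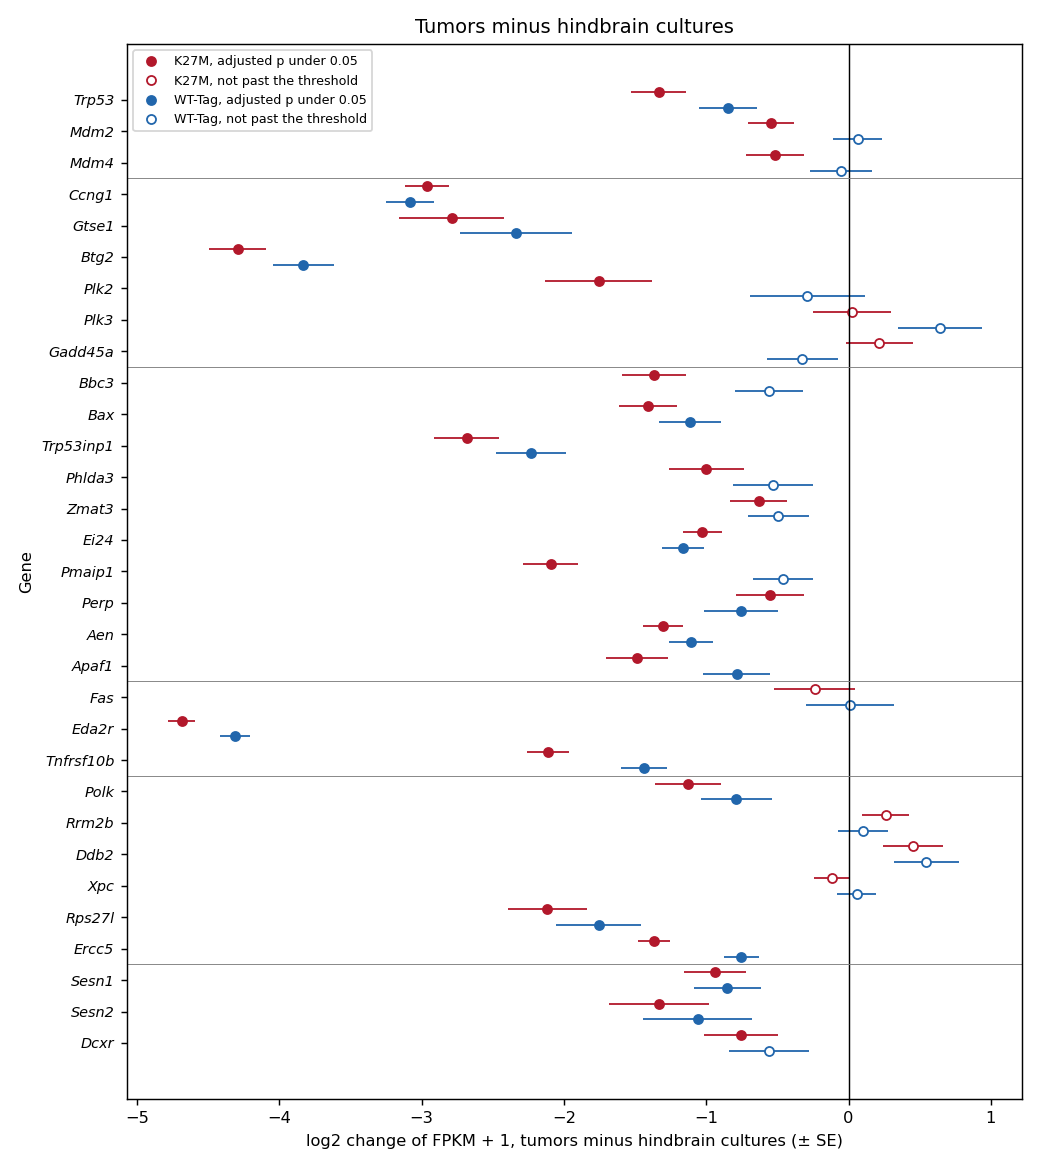
Log2 change of FPKM + 1 between tumors and hindbrain cultures (horizontal axis, ± SE) for each gene (vertical axis, grouped by role), in K27M (red) and WT-Tag (blue), with filled points at a limma adjusted p under 0.05. All filled points lie left of 0, the farthest being Eda2r at -4.69 in K27M and -4.31 in WT-Tag. Eda2r reached the expression filter through the cultures alone.

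Among p53 and its inhibitors, Trp53 was lower in the tumors of both genotypes. Its log2 change was -1.34 ± 0.19 in K27M (SE, limma adjusted p = 6.97e-07) and -0.85 ± 0.21 in WT-Tag (adjusted p = 0.00143). All 20 K27M tumors lay below the lowest K27M hindbrain culture (7.17 FPKM), and 8 of 9 WT-Tag tumors lay below the lowest WT-Tag hindbrain culture (4.20 FPKM). By an exact permutation test over samples, 2-sided, p was 0.00113 in K27M, the smallest that its 1771 arrangements can give, and 0.0182 in WT-Tag.

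Mdm2 had a lowest value of 8.63, a median of 13.1 and a highest value of 18.0 FPKM in K27M tumors, against 19.5, 18.4 and 22.2 FPKM in K27M hindbrain cultures. The groups did not overlap, and the log2 change was -0.55 ± 0.16 (limma adjusted p = 0.00467, exact permutation p = 0.00113). In WT-Tag it had 9.61, 14.2 and 16.9 FPKM in tumors and 14.8, 11.004 and 13.6 FPKM in cultures, which overlapped, with a log2 change of 0.06 ± 0.17 (limma adjusted p = 0.786, exact permutation p = 0.682). This near-zero value turned negative, still short of the threshold, after rescaling of the libraries (-0.10) and against forebrain cultures (-0.20). Mdm4, which binds p53 and blocks its activity, averaged 18.4 ± 5.26 FPKM in K27M tumors and 26.02 ± 3.82 FPKM in cultures (log2 change -0.51 ± 0.20, limma adjusted p = 0.0296), and 20.0 ± 4.24 FPKM in WT-Tag tumors against 20.5 ± 2.44 FPKM in cultures (-0.05 ± 0.22, adjusted p = 0.864).

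Of the 6 cell cycle and stress signaling genes, 4 were lower in K27M tumors and 3 of these in WT-Tag tumors. Ccng1, which encodes cyclin G1, a partner of protein phosphatase 2A in the control of Mdm2, had a lowest value of 9.52, a median of 15.7 and a highest value of 20.1 FPKM in K27M tumors, against 126, 123 and 123 FPKM in K27M hindbrain cultures. In WT-Tag tumors it had 10.8, 14.7 and 17.6 FPKM, against 119.7, 118 and 142 FPKM in WT-Tag cultures. The highest tumor thus lay far below the lowest culture in both genotypes, and the culture mean was 8.09 times the tumor mean in K27M and 8.93 times in WT-Tag. The log2 changes were -2.96 ± 0.15 (limma adjusted p = 6.55e-17) and -3.08 ± 0.17 (2.03e-16).

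Btg2, an antiproliferative gene that promotes mRNA deadenylation, had 3.25, 4.60 and 7.59 FPKM (lowest, median, highest) in K27M tumors against 93.8, 86.5 and 162 FPKM in K27M hindbrain cultures, and 2.10, 4.68 and 5.80 FPKM in WT-Tag tumors against 67.8, 72.0 and 72.9 FPKM in WT-Tag cultures. Its culture mean was 24.1 times the tumor mean in K27M and 16.8 times in WT-Tag, with log2 changes of -4.29 ± 0.20 and -3.83 ± 0.21 (limma adjusted p = 2.95e-18 and 5.30e-16). Gtse1, a microtubule-associated gene of the S and G2 phases whose product restrains p53, averaged 2.68 ± 1.33 FPKM in K27M tumors and 23.02 ± 1.32 FPKM in cultures, and 2.80 ± 2.80 FPKM in WT-Tag tumors and 15.8 ± 6.80 FPKM in cultures. Its log2 changes were -2.79 ± 0.37 and -2.34 ± 0.39. Beside it, all 22 proliferation genes listed with the p53 pathway, which the DREAM complex represses, were lower in K27M tumors and 21 of 22 were in WT-Tag tumors, with summed levels of 79.4 to 448 FPKM in K27M tumors against 935 to 1200.1 FPKM in cultures, and 33.2 to 705 FPKM in WT-Tag tumors against 589 to 1178 FPKM in cultures.

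Plk2, a polo-like kinase of the stress response, was lower in K27M tumors, with a lowest value of 13.6, a median of 29.05 and a highest value of 80.9 FPKM against 136, 131 and 92.7 FPKM in K27M hindbrain cultures (log2 change -1.76 ± 0.38, limma adjusted p = 0.000213). Against forebrain K27M cultures, which had 64.6, 66.1 and 49.1 FPKM, the difference in Plk2 did not pass the threshold (adjusted p = 0.0740). In WT-Tag tumors Plk2 averaged 55.3 ± 36.01 FPKM against 59.0 ± 8.74 FPKM in cultures (-0.29 ± 0.41, adjusted p = 0.582). Plk3 and Gadd45a, a second such kinase and a growth arrest gene, passed in neither genotype. Plk3 averaged 5.22 ± 2.49 FPKM in K27M tumors and 4.78 ± 0.985 FPKM in cultures, and Gadd45a 6.81 ± 2.18 FPKM and 5.56 ± 1.09 FPKM.

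All 10 genes of apoptosis were lower in K27M tumors, and 6 of them in WT-Tag tumors. Trp53inp1, a stress protein that acts in autophagy and cell death, had 4.91, 7.67 and 11.4 FPKM (lowest, median, highest) in K27M tumors against 52.3, 47.7 and 66.9 FPKM in K27M hindbrain cultures, and 3.85, 7.995 and 14.9 FPKM in WT-Tag tumors against 40.8, 40.6 and 46.6 FPKM in WT-Tag cultures. Its log2 changes were -2.68 ± 0.23 and -2.23 ± 0.25 (limma adjusted p = 1.47e-11 and 1.05e-08). Bax, the pore-forming effector of the mitochondrial pathway, whose promoter window is printed above, averaged 24.4 ± 5.80 FPKM in K27M tumors against 65.0 ± 7.30 FPKM in cultures, and 26.2 ± 6.37 FPKM in WT-Tag tumors against 57.6 ± 14.4 FPKM in cultures (-1.41 ± 0.21 and -1.11 ± 0.22). Aen, an exonuclease that digests DNA in dying cells, Ei24, an endoplasmic reticulum protein, Apaf1, the scaffold of the apoptosome, and Perp, a membrane protein of desmosomes, were also lower in both genotypes, with log2 changes of -1.30 and -1.11, -1.03 and -1.16, -1.48 and -0.79, and -0.55 and -0.75 in K27M and WT-Tag.

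The other 4 apoptosis genes passed in K27M and not in WT-Tag. Pmaip1, which encodes Noxa, a BH3-only protein that neutralizes Mcl-1, had a lowest value of 0.953, a median of 2.25 and a highest value of 3.86 FPKM in K27M tumors, against 12.4, 11.8 and 14.1 FPKM in K27M hindbrain cultures. In WT-Tag it had 1.36, 2.10 and 2.92 FPKM in tumors against 5.03, 2.32 and 2.72 FPKM in cultures, so that the tumors of both genotypes had like levels and the K27M cultures stood above the WT-Tag cultures. The log2 changes were -2.09 ± 0.19 in K27M (limma adjusted p = 1.01e-10) and -0.46 ± 0.21 in WT-Tag (adjusted p = 0.0724). The difference between them, -1.63 ± 0.29, passed its own test (adjusted p = 0.00206). It was the only one of the 31 genes to do so, where 0.383% of all genes passed. Against forebrain cultures that difference was -0.82 and did not pass (adjusted p = 1.00).

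Bbc3, which encodes the BH3-only protein Puma, averaged 2.57 ± 0.922 FPKM in K27M tumors and 8.45 ± 3.90 FPKM in cultures (log2 change -1.37 ± 0.22), and 2.46 ± 0.589 FPKM in WT-Tag tumors and 4.19 ± 1.53 FPKM in cultures (-0.56 ± 0.24, limma adjusted p = 0.0591). Phlda3, which holds back Akt at the membrane, averaged 20.7 ± 5.54 FPKM in K27M tumors and 41.1 ± 6.22 FPKM in cultures (-0.998 ± 0.26), and 18.0 ± 6.01 FPKM in WT-Tag tumors and 25.5 ± 5.78 FPKM in cultures (-0.53 ± 0.28, adjusted p = 0.124). Zmat3, an RNA-binding zinc finger protein, had log2 changes of -0.63 ± 0.20 in K27M and -0.49 ± 0.22 in WT-Tag (adjusted p = 0.00785 and 0.0620). For these 3 genes, as for Mdm2, Mdm4, Plk2 and Dcxr, the difference between the genotypes did not pass its own test (adjusted p of 0.418 or more).

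The death receptors held the gene with the widest gap. Eda2r, the ectodysplasin A2 receptor of the TNF receptor superfamily, had a lowest value of 0.049, a median of 0.152 and a highest value of 0.409 FPKM in K27M tumors, against 30.3, 27.1 and 29.1 FPKM in K27M hindbrain cultures. In WT-Tag it had 0.021, 0.136 and 0.445 FPKM in tumors against 24.4, 18.6 and 23.4 FPKM in cultures. No tumor reached 1 FPKM, and the culture mean was 179.9 times the tumor mean in K27M and 134 times in WT-Tag (log2 changes -4.69 ± 0.10 and -4.31 ± 0.10, limma adjusted p = 3.74e-29 and 7.91e-27). Tnfrsf10b, the mouse TRAIL receptor, averaged 0.362 ± 0.222 FPKM in K27M tumors against 4.83 ± 0.327 FPKM in cultures, and 0.360 ± 0.317 FPKM in WT-Tag tumors against 2.67 ± 0.766 FPKM in cultures (-2.11 ± 0.15 and -1.44 ± 0.16). Eda2r and Tnfrsf10b reached the filter through the cultures alone, so a difference was built into their tests. Their p-values are thus not support for it. Fas, the receptor of Fas ligand, averaged 3.85 ± 1.22 FPKM in K27M tumors and 4.56 ± 0.387 FPKM in cultures, 3.96 ± 2.18 FPKM in WT-Tag tumors and 3.45 ± 0.468 FPKM in cultures, and passed in neither genotype (adjusted p = 0.487 and 0.978).

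**Figure D3:**
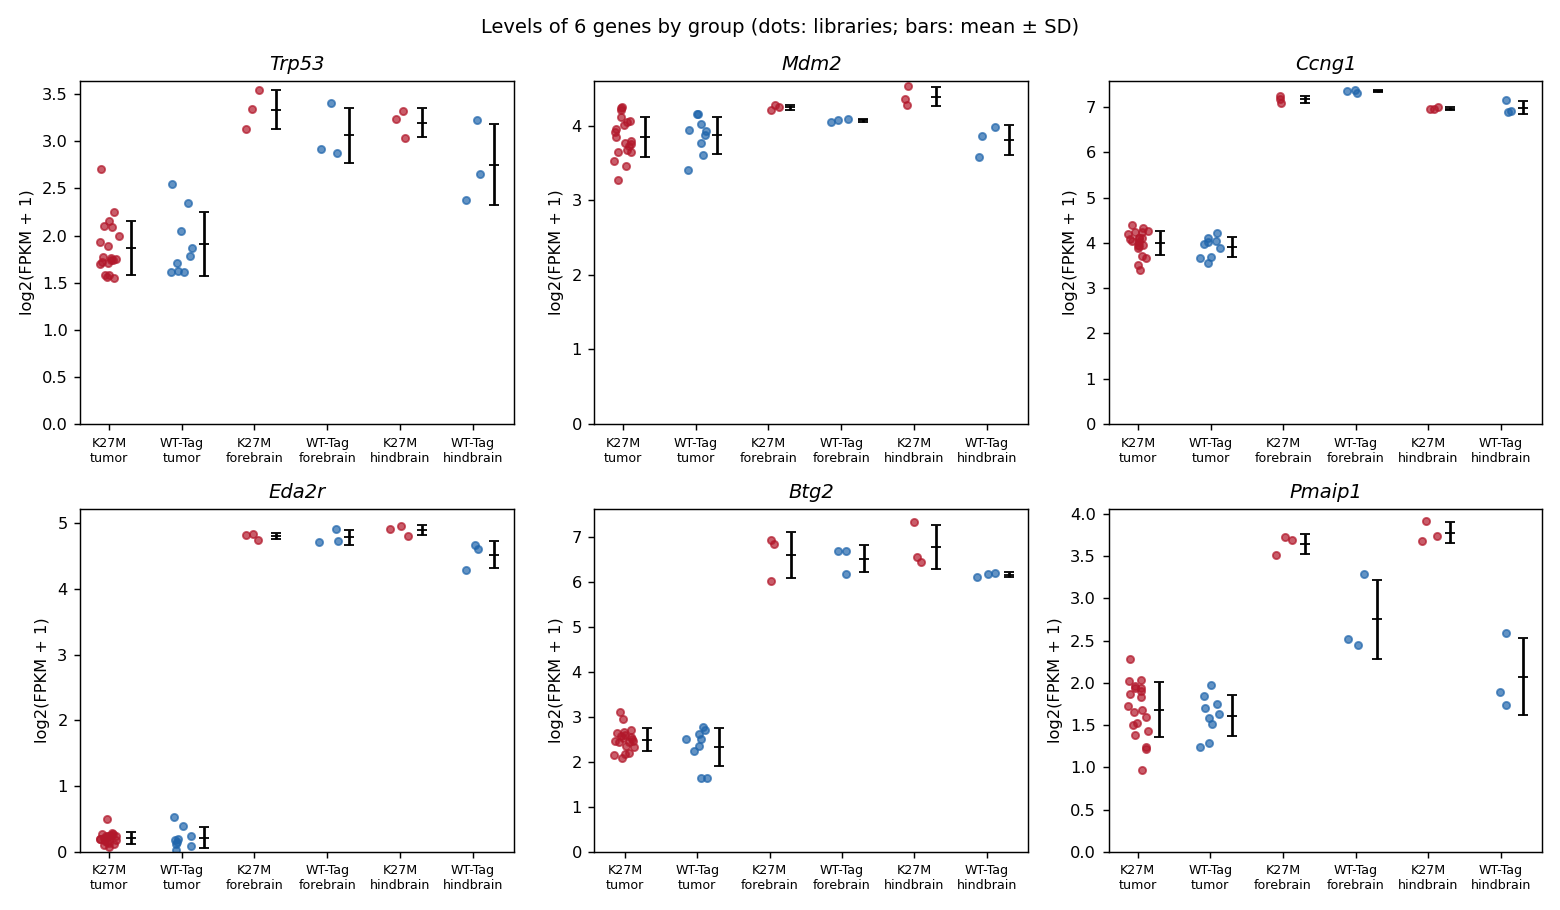
Level of 6 genes as log2(FPKM + 1) (vertical axis) in every library (points), by group, with bars giving mean ± SD for 20 K27M tumors, 9 WT-Tag tumors and 3 cultures in each other group. Ccng1, Eda2r and Btg2 separate tumors from cultures in both genotypes, and Pmaip1 is highest in the K27M cultures.

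The 6 genes of DNA repair and nucleotide supply split in equal parts in both genotypes. Lower in tumors were Rps27l, a ribosomal protein homolog, Ercc5, the endonuclease that cuts 3′ of a lesion in nucleotide excision repair, and Polk, a translesion polymerase. Rps27l had 22.4, 37.0 and 66.9 FPKM (lowest, median, highest) in K27M tumors against 183, 187 and 143 FPKM in K27M hindbrain cultures, and 23.955, 44.2 and 84.0 FPKM in WT-Tag tumors against 167, 144 and 140.1 FPKM in WT-Tag cultures. Its log2 changes were -2.12 ± 0.28 and -1.76 ± 0.30 (limma adjusted p = 1.32e-07 and 1.96e-05). Those of Ercc5 were -1.37 ± 0.11 and -0.75 ± 0.12, and those of Polk -1.13 ± 0.23 and -0.79 ± 0.25.

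Rrm2b, a ribonucleotide reductase subunit, and Ddb2 and Xpc, both of which recognize damaged DNA, did not pass in either genotype. Ddb2 averaged 2.16 ± 0.768 FPKM in K27M tumors and 1.26 ± 0.408 FPKM in cultures, and 2.45 ± 0.710 FPKM in WT-Tag tumors and 1.32 ± 0.170 FPKM in cultures (log2 changes 0.45 ± 0.21 and 0.55 ± 0.23, limma adjusted p = 0.0658 and 0.0506). Rrm2b had log2 changes of 0.26 ± 0.16 and 0.10 ± 0.18, and Xpc of -0.12 ± 0.13 and 0.06 ± 0.14.

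Of the 3 genes of metabolism and redox balance, all were lower in K27M tumors and Sesn1 and Sesn2 in WT-Tag tumors. The sestrins Sesn1 and Sesn2, which restrain mTORC1 signaling, had log2 changes of -0.94 ± 0.22 and -1.33 ± 0.35 in K27M and -0.85 ± 0.24 and -1.06 ± 0.38 in WT-Tag. Dcxr, a carbonyl reductase, had -0.75 ± 0.26 in K27M (limma adjusted p = 0.0143) and -0.56 ± 0.28 in WT-Tag (adjusted p = 0.104).

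Other p53 pathway genes moved in both directions between tumors and cultures. In K27M tumors 13 of 29 further p53 targets were lower than in K27M hindbrain cultures and 6 higher. Of all genes, 25.4% were lower and 32.0% higher there. In the WT-Tag comparison 9 were lower and 8 higher, where 16.2% of all 16721 genes tested were lower and 4514 genes higher. Only 24 of the 29 reached the filter in the 12 cultures alone. The rest needed the tumors to reach it, so a difference was in part built into their being tested. The largest changes were those of Psrc1, a spindle protein (-4.51 ± 0.37 in K27M), Casp1, the inflammatory caspase (3.77 ± 0.65), Ephx1, an epoxide hydrolase (-3.45 ± 0.26), Ckap2, a cytoskeleton-associated protein (-3.38 ± 0.48), and Tap1, the antigen peptide transporter (2.92 ± 0.69). Casp1 was at 0.058 FPKM on average in the K27M cultures, beside the microglia and macrophage sums given above. Cdkn1a, the CDK inhibitor p21, averaged 17.2 ± 13.8 FPKM in K27M tumors and 62.0 ± 8.10 FPKM in cultures (-2.23 ± 0.59, limma adjusted p = 0.00185), and 14.95 ± 10.3 FPKM in WT-Tag tumors and 37.9 ± 5.03 FPKM in cultures (-1.44 ± 0.64, adjusted p = 0.0645). The WT-Tag value of Cdkn1a passed after rescaling of the libraries (adjusted p = 0.0442), against forebrain cultures (0.00554) and in a fit on the 2 groups alone (0.00750).

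Of 27 tested activators, inhibitors and modifiers of p53, 11 were lower and 6 higher in K27M tumors, and 7 were lower and 6 higher in WT-Tag tumors. These counts stand beside the same shares of all genes as given above for the further targets. Cdkn2a, whose Arf product binds Mdm2 and frees p53, averaged 25.7 ± 18.5 FPKM in K27M tumors and 2.47 ± 0.605 FPKM in K27M hindbrain cultures, and 48.3 ± 34.4 FPKM in WT-Tag tumors and 2.25 ± 0.585 FPKM in WT-Tag cultures. It was higher in the tumors in both genotypes (log2 changes 2.63 ± 0.57 and 3.63 ± 0.61, limma adjusted p = 0.000222 and 1.68e-05). The value for the whole gene does not separate Arf from Ink4a. Chek2 and Chek1, checkpoint kinases that signal DNA damage, had log2 changes of -1.98 ± 0.31 and -1.69 ± 0.31 in K27M, Ppp1r13b, which encodes the p53-binding protein Aspp1, had 1.92 ± 0.26, and Rpl5, a ribosomal protein that binds Mdm2, had -1.51 ± 0.27.

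K27M and WT-Tag were then compared within the hindbrain cultures, where Trp53 was not floxed. Of the 31 genes, 8 were higher with K27M and 0 lower by limma, where 8.42% of all 13190 genes tested were higher and 5.13% lower. The 8 were Pmaip1, Plk2, Mdm2, Tnfrsf10b, Phlda3, Ercc5, Plk3 and Eda2r. The median log2 change over the 31 genes was 0.34, against 0.09 over all genes. Of the 31 values, 26 were above 0 and 25 above that median of all genes.

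Pmaip1 had 12.4, 11.8 and 14.1 FPKM in the K27M hindbrain cultures against 5.03, 2.32 and 2.72 FPKM in the WT-Tag cultures, a mean 3.80 times as high. The groups did not overlap, and the log2 change was 1.70 ± 0.24 (limma adjusted p = 0.00247). Plk2 had 136, 131 and 92.7 FPKM against 68.7, 51.8 and 56.6 FPKM (1.00 ± 0.17, adjusted p = 0.00580). Here too the lowest K27M culture, that of experiment 3, lay above the highest WT-Tag culture.

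Mdm2 had 19.5, 18.4 and 22.2 FPKM in K27M cultures against 14.8, 11.004 and 13.6 FPKM in WT-Tag cultures (log2 change 0.58 ± 0.11, limma adjusted p = 0.00736). Tnfrsf10b had 4.74, 4.56 and 5.20 FPKM against 3.44, 1.91 and 2.64 FPKM (0.69 ± 0.14, adjusted p = 0.0102). Phlda3 had 43.4, 34.1 and 45.9 FPKM against 25.9, 19.6 and 31.1 FPKM (0.68 ± 0.15, adjusted p = 0.0165). All 3 genes were higher in every K27M culture than in any WT-Tag culture.

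Ercc5 had 16.6, 15.6 and 20.9 FPKM with K27M against 12.3, 11.04 and 13.6 FPKM with WT-Tag (log2 change 0.49 ± 0.12, limma adjusted p = 0.0216). Plk3 had 4.30, 4.12 and 5.91 FPKM against 3.69, 1.59 and 2.04 FPKM (0.78 ± 0.20, adjusted p = 0.0282), and Eda2r 30.3, 27.1 and 29.1 FPKM against 24.4, 18.6 and 23.4 FPKM (0.37 ± 0.11, adjusted p = 0.0428). Of the 12 fits that left out 1 culture, Eda2r lost its call in 10, Plk3 in 4, and Phlda3 and Ercc5 in 3 each. In all, 12 of the 31 genes were higher in every K27M hindbrain culture than in any WT-Tag one, where 16.9% of all genes were, the further 4 being Trp53inp1, Mdm4, Fas and Btg2. Rrm2b, at 2.96, 3.19 and 3.15 FPKM with K27M against 3.68, 3.83 and 3.74 FPKM with WT-Tag, was lower in every one, where 11.1% of all genes were.

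**Figure D4:**
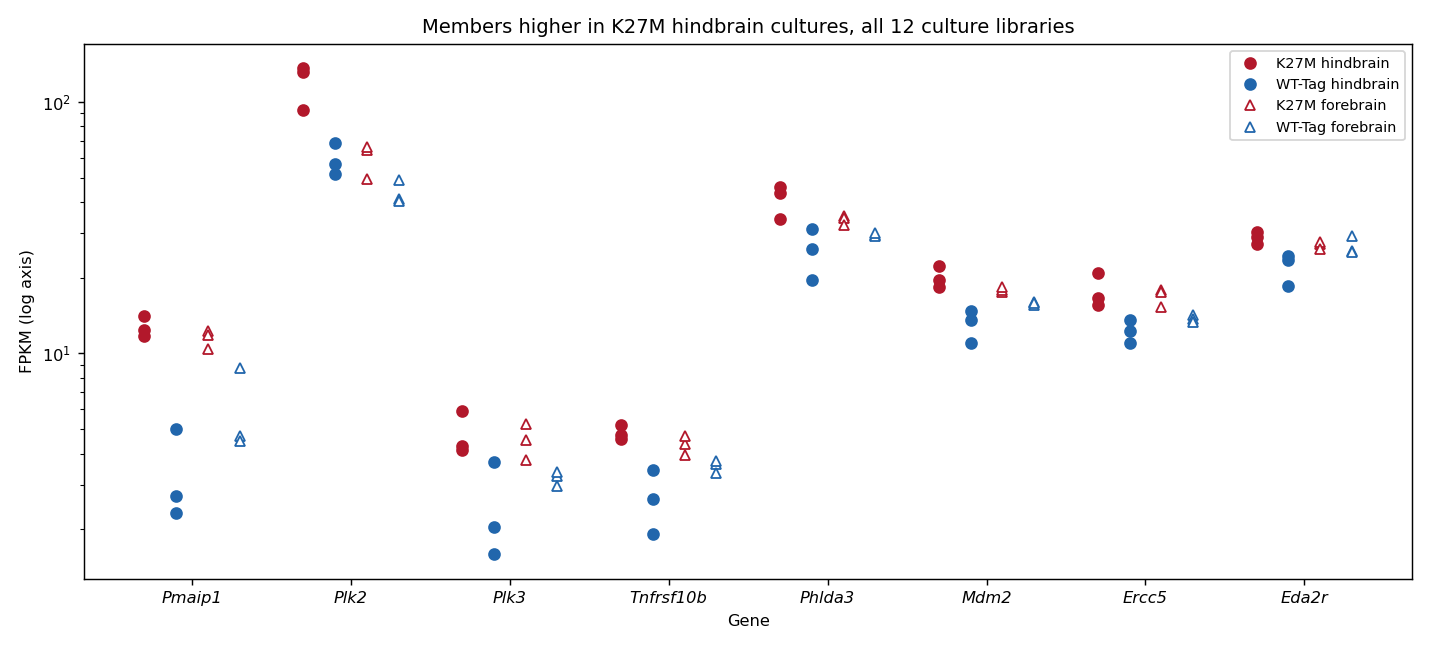
FPKM (vertical axis, log scale) of the 8 genes that were higher in K27M than in WT-Tag hindbrain cultures, with 1 symbol per culture, hindbrain as filled circles and forebrain as open triangles, K27M in red and WT-Tag in blue. For each gene the 3 K27M hindbrain cultures lie above the 3 WT-Tag hindbrain cultures, and the forebrain cultures of the 2 genotypes lie closer together, those of Pmaip1 at 10.4 to 12.3 and 4.48 to 8.74 FPKM.

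Not every p53 target moved with these 8 genes. Ccng1 had 126, 123 and 123 FPKM with K27M and 119.7, 118 and 142 FPKM with WT-Tag (log2 change -0.02 ± 0.09, limma adjusted p = 0.889). Bbc3 had 7.64, 5.02 and 12.7 FPKM against 4.28, 2.62 and 5.67 FPKM (0.83 ± 0.29, adjusted p = 0.0844), with overlap between the genotypes. Trp53 itself, at 9.01, 8.45 and 7.17 FPKM against 8.37, 4.20 and 5.29 FPKM, also overlapped (0.45 ± 0.21, adjusted p = 0.175). Its change was 0.68 without the WT-Tag culture of experiment 1, where it passed (adjusted p = 0.0168), and 0.26 without that of experiment 2 (0.522). With experiment as a replicate block, Trp53 passed (adjusted p = 0.0492) and 11 of the 31 genes were higher, all 8 among them. Of all genes, 1474 were higher with that block, against 1111 in the main fit.

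The 8 calls rested on few cultures. Without experiment 3, in which genotype and sex of the cultures coincide, all 8 changes were positive and 1, that of Plk2, passed. In a fit on the 2 hindbrain groups alone Pmaip1 and Plk2 passed. The count was 4 without the K27M culture of experiment 1 or 3 or the WT-Tag culture of experiment 2, and 13 without the WT-Tag culture of experiment 1. Counts over all genes moved with these. Against 1111 genes higher in the main fit, 44 were higher without experiment 3 and 119 in the fit on 2 groups. Without the K27M culture of experiment 1 or 3 it was 288 or 583. Without the WT-Tag culture of experiment 2 it was 274, and 3081 without that of experiment 1. Beside the 8 genes, summed astrocyte markers were at 263 to 315 FPKM in K27M and 505 to 623 FPKM in WT-Tag hindbrain cultures. The 22 proliferation genes were at 935, 1100.0 and 1200.1 FPKM (lowest, median, highest) against 589, 619 and 1178 FPKM. The part of these in the result was not tested.

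Of 24 tested further p53 targets, 8 were higher and 0 lower in the K27M hindbrain cultures, where 8.42% of all genes were higher and 5.13% lower. Cdkn1a averaged 62.0 ± 8.10 FPKM with K27M and 37.9 ± 5.03 FPKM with WT-Tag (log2 change 0.70 ± 0.13, limma adjusted p = 0.00737), and did not pass without experiment 3 (adjusted p = 0.129) or in a fit on the 2 hindbrain groups alone (0.0596). Trp53i11, named as a p53-induced gene, rose by 1.77 ± 0.41, Thbs1, which encodes the antiangiogenic matrix protein thrombospondin 1, by 1.76 ± 0.28, Cd82, a tetraspanin, by 1.19 ± 0.24, Psrc1 by 0.74 ± 0.20 and Sertad1 by 0.68 ± 0.15 (adjusted p between 0.00471 and 0.0364). Without experiment 3, 1 of these 8 further targets, Thbs1, passed. Of 27 tested modifiers 4 were higher, Chek2 (0.63 ± 0.19), Rpl5 (0.50 ± 0.08), Rpl11 (0.47 ± 0.11), a ribosomal protein that also binds Mdm2, and Ing1 (0.43 ± 0.11), a chromatin reader that aids p53, and 0 passed without experiment 3. Cdkn2a averaged 2.47 ± 0.605 FPKM with K27M and 2.25 ± 0.585 FPKM with WT-Tag (0.09 ± 0.19, adjusted p = 0.770). All 22 proliferation genes had a positive change. Their median was 0.57, against 0.34 over the 31 genes and 0.09 over all genes. Of the 22, 0 passed by limma and 12 had an unadjusted p under 0.05, where 30.8% of all genes passed in either direction. With experiment as a block 4 passed.

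In the forebrain cultures 0 of the 31 genes passed the same comparison, where 0.356% of all genes passed. The median log2 change over the 31 genes was 0.11, against 0.04 over all genes, and 24 of the 31 values were above 0. The share of all genes above 0 is not given, and their median was -0.000415 after rescaling of the libraries. Without overlap between the genotypes, 10 genes were higher with K27M and 3 lower. The share of all genes is not given for that measure, so these counts cannot be read as particular to the 31 genes. The 10 were Pmaip1, Plk2, Ercc5, Plk3, Tnfrsf10b, Mdm2, Phlda3, Rps27l, Mdm4 and Apaf1, with all of the hindbrain calls but Eda2r among them. At an unadjusted p under 0.05 4 were higher and 1 lower, where 13.1% of all genes passed in either direction. The smallest p was that of Pmaip1, with 10.4, 12.3 and 11.9 FPKM in K27M against 8.74, 4.71 and 4.48 FPKM in WT-Tag forebrain cultures (log2 change 0.89 ± 0.24, limma adjusted p = 0.151), and the groups did not overlap. Fas had 3.33, 3.48 and 4.54 FPKM against 4.90, 5.36 and 4.73 FPKM (-0.33 ± 0.12, adjusted p = 0.263). Plk2 had 64.6, 66.1 and 49.1 FPKM against 48.9, 41.2 and 40.3 FPKM (0.45 ± 0.17, adjusted p = 0.303).

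Ercc5 (log2 change 0.28 ± 0.12, limma adjusted p = 0.343) and Perp (0.37 ± 0.16, adjusted p = 0.359) followed. Trp53 had 0.27 ± 0.21, Mdm2 0.17 ± 0.11 and Ccng1 -0.17 ± 0.09 (adjusted p = 0.620, 0.523 and 0.465).

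**Figure D5:**
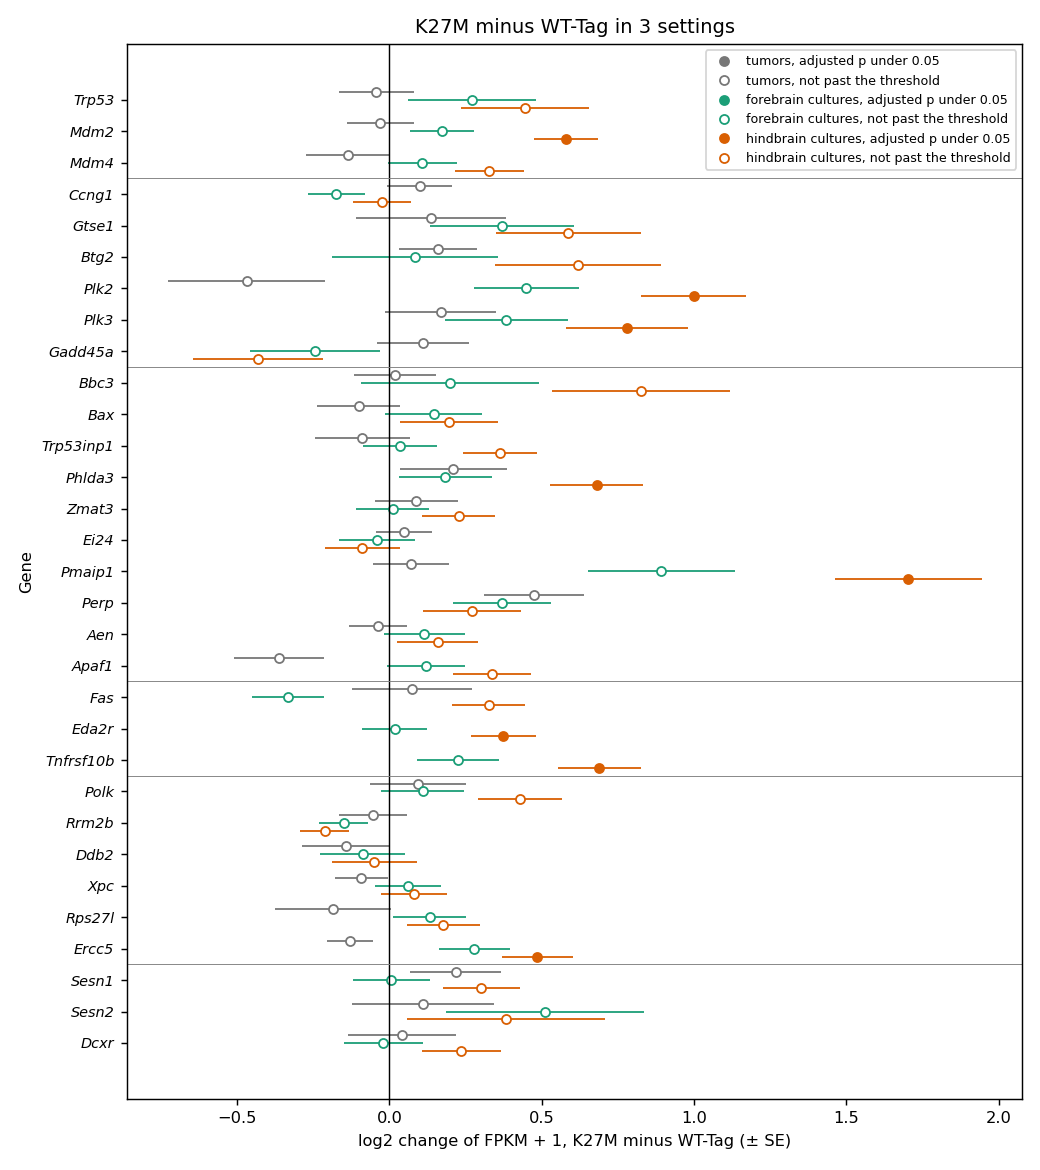
Log2 change of FPKM + 1 between K27M and WT-Tag (horizontal axis, ± SE) for each gene (vertical axis, grouped by role) in tumors (gray), forebrain cultures (green) and hindbrain cultures (orange), with filled points at a limma adjusted p under 0.05. The 8 filled points are all of hindbrain cultures, from 0.37 for Eda2r to 1.70 for Pmaip1.

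Whether the K27M effect differed between hindbrain and forebrain was tested as an interaction, and 0 of the 31 genes passed, where 0.0379% of all genes did. At an unadjusted p under 0.05 7 had a larger effect in the hindbrain, where 6.30% of all genes passed in either direction. The smallest p was that of Fas, whose change was 0.33 in hindbrain and -0.33 in forebrain cultures (difference 0.66 ± 0.17, limma adjusted p = 0.320). Mdm2 had a difference of 0.41 ± 0.15, Tnfrsf10b of 0.46 ± 0.19, Pmaip1 of 0.81 ± 0.34 and Eda2r of 0.36 ± 0.15 (adjusted p between 0.636 and 0.759). The 8 calls in hindbrain cultures are therefore not shown to differ from the forebrain.

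Between regions, 2 of the 31 genes were higher in K27M hindbrain than in K27M forebrain cultures and 0 lower, where 4.47% of all genes were higher and 3.45% lower. Plk2 had 136, 131 and 92.7 FPKM in hindbrain against 64.6, 66.1 and 49.1 FPKM in forebrain cultures (log2 change 0.98 ± 0.17, limma adjusted p = 0.00551). Sesn1 had 17.4, 15.8 and 21.9 FPKM against 12.02, 12.2 and 9.66 FPKM (0.65 ± 0.13, adjusted p = 0.00942). Both were higher in every hindbrain culture. Trp53 (-0.14 ± 0.21), Mdm2 (0.15 ± 0.11) and Ccng1 (-0.21 ± 0.09) did not pass (adjusted p between 0.220 and 0.766).

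In WT-Tag cultures 0 of the 31 genes differed between hindbrain and forebrain, where 1.82% of all genes did. At an unadjusted p under 0.05 10 were lower and 2 higher in the hindbrain, where 10.8% of all genes passed in either direction. Ccng1 had 119.7, 118 and 142 FPKM in hindbrain against 164, 163 and 159 FPKM in forebrain cultures, without overlap (log2 change -0.36 ± 0.09, limma adjusted p = 0.1001). Fas (-0.44 ± 0.12), Trp53inp1 (-0.39 ± 0.12), Sesn1 (0.35 ± 0.13) and Pmaip1 (-0.68 ± 0.24) followed (adjusted p between 0.117 and 0.271), and Trp53 (-0.31 ± 0.21) and Mdm2 (-0.26 ± 0.11) had adjusted p of 0.692 and 0.376. With the culture letter that a hindbrain and a forebrain culture share as a replicate block, which takes the letter to mark a pair although the labels do not say so, Plk2 was higher (adjusted p = 0.0398) and Pmaip1 was lower (adjusted p = 0.0146). Pmaip1 was also lower without the WT-Tag hindbrain culture of experiment 1 (adjusted p = 0.0384). Cdkn1a, outside the 31, had 37.9 ± 5.03 FPKM in WT-Tag hindbrain and 64.4 ± 5.68 FPKM in WT-Tag forebrain cultures (-0.75 ± 0.13, adjusted p = 0.0102). That call was lost without the WT-Tag forebrain culture of experiment 2 (adjusted p = 0.0619) or 3 (0.0598), and in a fit on these 2 groups alone (0.0733).

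In the tumors, where Trp53 was floxed in both genotypes, 29 of the 31 genes were tested between K27M and WT-Tag, and 0 passed by limma, where 0.0846% of all 15360 genes tested did. Eda2r and Tnfrsf10b were not tested because they stayed under 1 FPKM in most tumors. At an unadjusted p under 0.05 Perp was higher and Apaf1 lower, where 7.19% of all genes passed in either direction. The median log2 change over the 29 was 0.04, against -0.01 over all genes.

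Perp had a lowest value of 0.298, a median of 1.52 and a highest value of 2.91 FPKM in K27M tumors, against 0.227, 0.763 and 1.26 FPKM in WT-Tag tumors (log2 change 0.47 ± 0.17, limma adjusted p = 0.490). Apaf1 had 1.02, 2.12 and 3.93 FPKM against 1.35, 3.32 and 6.30 FPKM (-0.36 ± 0.15, adjusted p = 0.608). For both genes the ranges of K27M and WT-Tag tumors overlapped. Plk2 (-0.47 ± 0.26), Ercc5 (-0.13 ± 0.07) and Sesn1 (0.22 ± 0.15) followed, with adjusted p between 0.742 and 0.776. Trp53 had -0.04 ± 0.12, Mdm2 -0.03 ± 0.11 and Ccng1 0.10 ± 0.11 (adjusted p between 0.860 and 0.965). Cdkn1a averaged 17.2 ± 13.8 FPKM in K27M and 14.95 ± 10.3 FPKM in WT-Tag tumors (-0.09 ± 0.41), and Cdkn2a 25.7 ± 18.5 and 48.3 ± 34.4 FPKM (-0.91 ± 0.39, adjusted p = 0.637). Of the 29 further p53 targets, 27 modifiers and 22 proliferation genes tested in tumors, 0 passed, and 4, 4 and 0 had an unadjusted p under 0.05.

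Among tumors of 1 genotype the genes varied by a median coefficient of variation of 29.7% in K27M and 32.1% in WT-Tag tumors. Ercc5, Ei24, Aen, Xpc, Ccng1 and Mdm2 varied by under 20% among K27M tumors. Of 8 relations of the Trp53 level with Mdm2, Ccng1, Cdkn1a and the proliferation gene Mki67 in either genotype, 1 passed by Pearson's r, that with Mdm2 among the 20 K27M tumors. There Pearson's r was 0.573 (permutation p = 0.00502, adjusted over the 8 relations 0.0402) and Spearman's rho 0.568 (permutation p = 0.0107, adjusted 0.0859). Without the 2 tumors farthest from the median Trp53 level r was 0.372. Leaving them out also narrows the range of Trp53, so the lower r does not tell whether the relation rests on them. None of the other 7 passed by either measure, with r between -0.290 and 0.615. With Ccng1 it was 0.05 among K27M tumors.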

How the data were processed

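The authors deposited 1 table of FPKM values for the 41 libraries. Trizol RNA, ERCC spike-ins for the cultures and the TruSeq Stranded Total RNA kit are given per the labels' protocols, and CASAVA, TopHat2, STAR and mm9 per the submitters' processing notes, without roles. For the counting tool, its use of strand and the gene models, the sources used here give nothing, which leaves overlapping genes and near-identical copies uncertain. One entry, AC157822.1, held 12.7% to 23.8% of each library's FPKM total.

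FPKM values are not counts, so limma 3.58.1 (R 4.3.3), allowing for a mean-variance trend, was fitted to log2(FPKM + 1), with Benjamini-Hochberg adjustment of 2-sided p-values over all genes tested and a threshold of 0.05. This scale understates changes of low genes. Tumors were fitted alone (at least 1 FPKM in at least 9 libraries), the 12 cultures as 4 groups, and tumors with hindbrain cultures as 4 groups (at least 3 libraries each). SE belongs to log2 changes and SD to FPKM. Whether cultures of a group came from separate embryos is not said, so p-values measure the spread between these samples. With 3 against 3, an exact permutation p cannot go below 0.1. The 31 genes and all lists were chosen with earlier results of these data known. Genes given with full values were Trp53, Mdm2, Ccng1, those past the threshold (at most 10 per direction, by size of change), or the 5 with the smallest p where none passed, and for other lists Cdkn1a, Cdkn2a and up to 5 called genes. Further genes are given to account for every one of the 31.

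Experiment ids, given in the labels, were taken to pair cultures across genotypes, and culture letters in their titles to pair regions, which the labels do not state outright. The deviations of same-experiment cultures correlated at 0.443, -0.234 and 0.352 in forebrain and 0.412, 0.152 and 0.438 in hindbrain, those of same-letter cultures at 0.216, -0.047 and -0.040 in K27M and 0.668, 0.712 and 0.165 in WT-Tag. All 3 pairs were above 0.1 in the hindbrain and WT-Tag comparisons, and not in the other 2. Pairs of different number reached at most 0.441 in forebrain, 0.094 in hindbrain, 0.170 in K27M and 0.504 in WT-Tag. The correlations thus do not settle the pairing. Alternatives were a pseudocount of 0.1, no filter, median-ratio rescaling, no trend, blocks, 2 groups alone, forebrain cultures as the counterpart of tumors, labelled sex, and leaving out WT-Tag tumors 8 and 9, experiment 3 or each library in turn.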

Additional observations from a re-analysis of the deposited data

Results flagged for a closer look

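For Pmaip1 the difference between tumors and hindbrain cultures depended on the histone allele. The log2 change was -2.09 ± 0.19 in K27M and -0.46 ± 0.21 in WT-Tag, and their difference, -1.63 ± 0.29, passed the interaction test (limma adjusted p = 0.00206). Mean Pmaip1 levels were 2.29 ± 0.723 FPKM in K27M tumors and 12.7 ± 1.20 FPKM in K27M hindbrain cultures, and 2.10 ± 0.511 FPKM in WT-Tag tumors and 3.36 ± 1.46 FPKM in WT-Tag hindbrain cultures. With forebrain cultures in place of hindbrain the difference was -0.82 and did not pass (adjusted p = 1.00). In the 9 WT-Tag tumors, the one group of a size that was searched for single libraries far from the rest, none of the 31 genes had such a library.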

How the results depend on the processing

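Hindbrain K27M against WT-Tag was the comparison that moved most. The 8 genes higher became 1 without experiment 3 and 2 in a fit on 2 groups, and leaving out each culture gave 4 to 13 higher and 0 to 1 lower. Without the filter 6 of the 8 passed, where 583 of all genes were higher. Calls over all genes moved with these, from 1111 higher in the main fit to 44 without experiment 3 and 119 in a fit on 2 groups. Leaving out each culture gave 274 to 3081 of all genes higher. With experiment as a replicate block 11 of the 31 genes were higher, where 1474 of all genes were. In WT-Tag cultures the block of culture letters gave 1 higher and 1 lower between regions, where leaving out each culture gave 0 to 2 lower. Of all genes, 157 were higher and 109 lower with that block, against 146 and 94 in the main fit. Leaving out each culture gave 42 to 357 of all genes lower. The blocks changed no other count of the 31 genes by over 1.5 times. For WT-Tag tumors against hindbrain cultures, 1 gene, Ddb2, was higher without the trend, 2, Ddb2 and Plk3, in a fit on 2 groups, and 0 to 1 on leaving out each culture. Of all genes, 4516 were higher without the trend and 3831 in a fit on 2 groups, against 4514 in the main fit. For the dependence of the tumor difference on the allele, 2 genes passed without the filter and 0 with forebrain cultures. Of all genes, 798 were higher and 130 lower there without the filter, and 1 and 5 with forebrain cultures, against 31 and 33 in the main fit. The 25 and 17 genes lower in tumors became 23 and 21 against forebrain cultures. Of all genes, 4228 and 3077 were lower against forebrain cultures, and 4253 and 2711 against hindbrain cultures. Rescaling moved the median of all genes to 0.02 against 0.11 as deposited in K27M and to 0.03 against 0.17 in WT-Tag, and the share of all calls that were higher to 49.96% against 55.7% and to 49.7% against 62.5%. In no case was the cause tested.

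Values that changed sign were all short of the threshold: forebrain Cdkn1a, -0.00412 after rescaling and -0.024 to 0.10 on leaving out each culture; hindbrain Ccng1, 0.069 without experiment 3 and -0.073 to 0.062; WT-Tag tumor Mdm2, -0.10 after rescaling, -0.20 against forebrain cultures and -0.049 to 0.15; and, between K27M and WT-Tag tumors on leaving out each tumor, Trp53 -0.087 to 0.037, Mdm2 -0.088 to 0.0064 and Cdkn1a -0.19 to 0.10. The difference of the K27M effect between regions in Trp53 was -0.013 to 0.41. Eda2r lay under 1 FPKM in every tumor, which limits the precision of its fold.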
